A study of Mus musculus with 18 samples.

Results

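The G1 genes described here are 10 genes that control passage from G1 into S phase: the D-type cyclins Ccnd1, Ccnd2 and Ccnd3, the E-type cyclins Ccne1 and Ccne2, the kinases Cdk4, Cdk6 and Cdk2, the kinase inhibitor Cdkn1b (p27) and the pocket protein Rb1. They were picked by name, from knowledge of the pathway, out of the 14411 genes with a row in at least 1 of the count tables analysed. Earlier results of these data were known when they were picked. The EpiLC table held all 10 among 13717 genes, and the ESC table held 9 among 13104 genes, so Ccnd2 was not analysed in ESCs here. The question put to them was whether exposure to Δ9-tetrahydrocannabinol (Δ9-THC), the main psychoactive compound of cannabis, went with a change in these mRNAs.

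The libraries came from mouse embryonic stem cells (ESCs), kept in the naive state in 2i+LIF medium, and from epiblast-like cells (EpiLCs), which were derived from ESCs with activin A and bFGF and stand for the primed state of the early post-implantation epiblast. All cells were BVSC cells, a line that carries the reporters Blimp1::mVenus and Stella::ECFP; the study states that its main data came from the female clone, which the labels of these libraries do not name. Cells of both types were kept throughout with Δ9-THC at 100 nM or with its vehicle, ethanol, so exposed EpiLCs were derived from exposed ESCs. In each of the 4 groups, 3 biological replicates were sequenced as poly(A) RNA. The germ cell-like libraries of the series were not analysed here.

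In the textbook account, D-type cyclins couple growth signals to the cell cycle by activating CDK4 and CDK6, which phosphorylate RB1 and release E2F factors, and E2F factors then switch on Ccne1, Ccne2 and the genes of DNA replication. Cyclin E with CDK2 completes the phosphorylation of RB1 and starts S phase, while p27 binds and restrains the cyclin-CDK complexes. Mouse ESCs in general have been described as having a short G1 phase, with high cyclin E activity and D-type cyclins low relative to differentiated cells. Whether that description holds for ESCs kept in the naive state, as these were, was not tested. The mRNA levels below measure neither the length of G1 nor the activity of cyclins.

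Promoter sequences are shown for 4 of these genes, because their levels differed most between the cell types (Ccnd3, Ccne1) or because their windows held the largest number of E-boxes (Cdk4) or the only E2F motif (Cdk2). RefSeq promoters (build GRCm38.p6) matched 6 of the 10 genes, with 7 start sites in all, and the 250 bases before each start were searched on both strands. Capitals mark the GC box GGGCGG, the motif bound by SP1, in the windows of Ccnd3 and Ccne1. They mark the E-box CACGTG, the motif bound by MYC proteins, in the window of Cdk4, and an E2F motif in that of Cdk2.
Ccnd3, first start, chr17:47504801-47505050, plus strand: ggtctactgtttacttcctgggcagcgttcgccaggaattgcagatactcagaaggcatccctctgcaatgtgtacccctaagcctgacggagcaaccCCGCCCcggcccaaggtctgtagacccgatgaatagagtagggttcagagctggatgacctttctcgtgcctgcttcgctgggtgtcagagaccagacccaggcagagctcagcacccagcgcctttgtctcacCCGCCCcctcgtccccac
Ccnd3, second start, chr17:47593217-47593466, plus strand: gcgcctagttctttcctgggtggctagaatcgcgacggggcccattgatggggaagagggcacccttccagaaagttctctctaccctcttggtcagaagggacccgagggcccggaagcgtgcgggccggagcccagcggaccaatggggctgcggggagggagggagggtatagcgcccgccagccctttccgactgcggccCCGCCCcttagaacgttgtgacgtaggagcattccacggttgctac
Ccne1, chr7:38107491-38107740, minus strand: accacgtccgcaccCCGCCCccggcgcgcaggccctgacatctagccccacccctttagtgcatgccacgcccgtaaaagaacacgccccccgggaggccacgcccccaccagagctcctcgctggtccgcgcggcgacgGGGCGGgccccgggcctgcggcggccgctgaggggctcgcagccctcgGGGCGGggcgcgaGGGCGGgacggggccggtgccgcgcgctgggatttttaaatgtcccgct
Cdk4, chr10:127063285-127063534, plus strand: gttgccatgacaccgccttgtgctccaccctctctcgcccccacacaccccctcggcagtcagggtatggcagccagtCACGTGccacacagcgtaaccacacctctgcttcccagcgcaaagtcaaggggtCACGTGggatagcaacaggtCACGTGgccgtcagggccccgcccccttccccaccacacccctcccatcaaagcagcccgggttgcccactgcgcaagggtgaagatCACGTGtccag
Cdk2, chr10:128705052-128705301, minus strand: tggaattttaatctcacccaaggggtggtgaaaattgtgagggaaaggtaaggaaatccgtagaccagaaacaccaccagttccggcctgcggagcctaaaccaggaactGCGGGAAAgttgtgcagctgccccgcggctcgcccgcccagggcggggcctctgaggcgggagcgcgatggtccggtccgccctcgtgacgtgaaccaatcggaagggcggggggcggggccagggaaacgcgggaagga

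The GC box occurred 2 times before the first Ccnd3 start, 1 time before the second and 4 times before Ccne1. It also occurred 5 times before Cdk2 and 1 time before Cdk4, where it is left in lower case, and 1 time before Cdkn1b. Of all 32851 promoters of this length, 32.7% held at least 1. The Cdk4 window held 4 E-boxes, against at least 1 in 6.02% of all promoters, and the Cdk6 window held 1. The E2F motif was searched as TTTCGCGC, TTTGGCGC, TTTCCCGC or TTTGCCGC, which 1.86% of all promoters held. Among the 7 windows it was found only in that of Cdk2, on the opposite strand, at −140 to −133 relative to the start. None of these motifs overlapped another in the windows shown. These are matches of letters and not measured binding sites.

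Libraries held between 23427551 and 32096698 counts, and the G1 genes were well covered: the lowest count of any of them was 285, for Rb1 in vehicle EpiLCs, and the highest was 19284, for Cdk4 in the same group. Levels are given as counts per 1000000 counts of the library (CPM), scaled within each table, with the SD over 3 libraries. The labels held against markers. The summed level of 9 naive pluripotency genes ranged from 4356 to 4742 CPM over the 6 ESC libraries and from 313 to 368 CPM over the 6 EpiLC libraries, while that of the formative and primed genes ranged from 82.9 to 92.5 CPM over 4 measured genes in ESCs and from 1034 to 1324 CPM over 5 in EpiLCs. Markers of primitive endoderm, trophoblast and mesoderm each had 1 measured gene per cell type, at no more than 16.2 CPM in any library, and neural markers summed to between 3.11 and 24.1 CPM. Among the formative and primed genes, Pou3f1 (3.56 to 3.99 CPM with vehicle and 1.84 to 2.18 CPM with Δ9-THC) and Sox3 (3.72 to 4.20 and 2.89 to 3.25 CPM) were lower in exposed ESCs (edgeR adjusted p = 0.0265 and 0.0498), while the summed level of that list overlapped between the groups. Both calls were lost with the replicate block (edgeR adjusted p = 0.414 and 0.482) and with GC and length offsets (log2(fold-change) −0.74 and −0.14, edgeR adjusted p = 0.0822 and 0.548). They were also lost in each fit that left out 1 library, where between 0 and 1 genes of the whole table were called. The part of Pou3f1 and Sox3 in the results below was not tested. A point bears on every SD and p-value below: the authors had adjusted the counts for batch, and part of the spread between libraries was removed before these counts were tested.

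Per kilobase of exon, the scale on which different genes can be compared, Cdk4 was the most abundant G1 transcript in all 4 groups. Its mean level in vehicle ESCs was 156 ± 5.0 CPM per kilobase (SD, n = 3), above 98.0% of the genes of the ESC table. Ccne1 came second in every group, at 54.1 ± 3.92 CPM per kilobase in vehicle ESCs and 82.3 ± 8.87 in vehicle EpiLCs. Cdk6, the other D-cyclin kinase, was the least abundant of the measured genes in every group, at 1.78 ± 0.13 CPM per kilobase in vehicle ESCs and 1.47 ± 0.018 in vehicle EpiLCs, and the level of Cdk4 exceeded that of Cdk6 by 87.6-fold and 124-fold respectively.

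**Figure D1:**
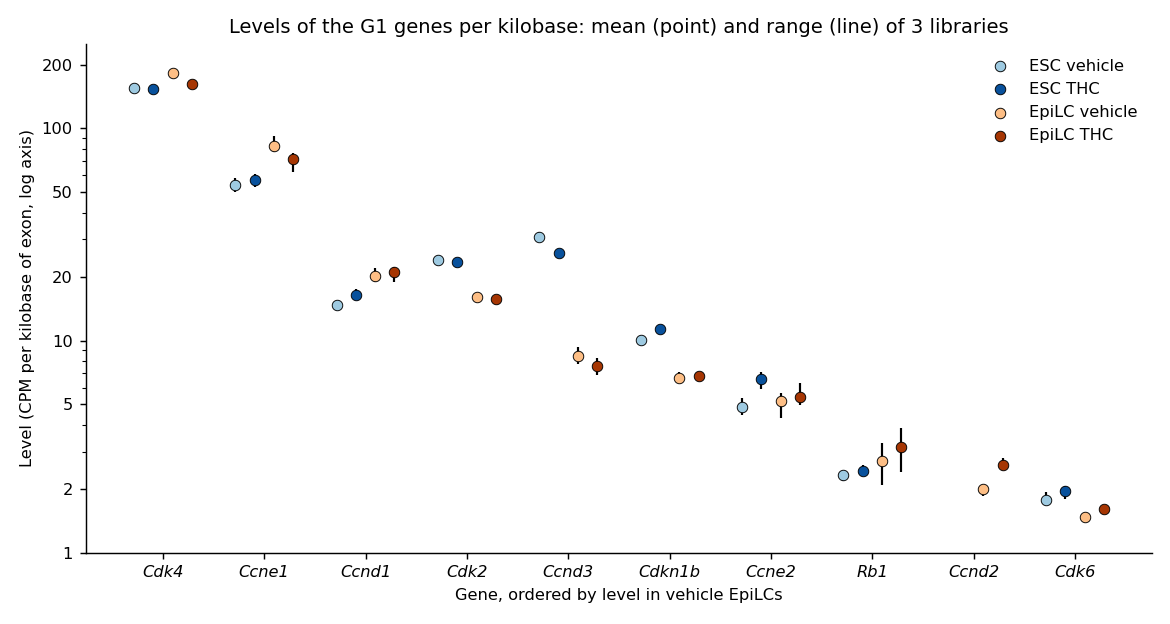
Levels of the 10 G1 genes in CPM per kilobase of exon (vertical log axis), with 1 point per group for the mean and a line for the range of 3 libraries. Cdk4 and Ccne1 stand above the rest in all 4 groups, Cdk6 is lowest, and the ESC and EpiLC points of Ccnd3 lie far apart.

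The order in vehicle ESCs ran Cdk4, Ccne1, Ccnd3, Cdk2, Ccnd1, Cdkn1b, Ccne2, Rb1 and Cdk6, and it was the same in exposed ESCs. In vehicle EpiLCs it ran Cdk4, Ccne1, Ccnd1, Cdk2, Ccnd3, Cdkn1b, Ccne2, Rb1, Ccnd2 and Cdk6, again the same in exposed EpiLCs. Neighbours in these orders had ranges apart in ESCs of both groups and in vehicle EpiLCs. In exposed EpiLCs, Ccnd3 could not be separated from Cdkn1b (7.60 ± 0.70 and 6.84 ± 0.36 CPM per kilobase), nor Rb1 from Ccnd2 (3.15 ± 0.74 and 2.60 ± 0.16). The annotated exonic length enters these values: with the length of the longest transcript in its place, 4 of the 38 ranks differed.

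The largest contrast between the cell types was in the D-type cyclins. Gene positions below are those of GENCODE M21 on GRCm38. Ccnd3 (chr17:47505051-47599691, plus strand), the more abundant of the D-type cyclins measured in ESCs, measured 266, 263 and 285 CPM in the vehicle ESC libraries and 73.2, 81.5 and 68.2 CPM in the vehicle EpiLC libraries, 3.65-fold more in ESCs. Ccnd1 (chr7:144929931-144939925, minus strand), the D-type cyclin most often tied to mitogen signals, measured 72.0, 65.4 and 71.3 CPM in vehicle ESCs and 91.5, 103 and 88.9 CPM in vehicle EpiLCs, 1.36-fold more in EpiLCs. The ranges of both genes were apart between the cell types, and Ccnd3 was high where Ccnd1 was low. Per kilobase, Ccnd3 made up 67.7% ± 1.04 of Ccnd1 and Ccnd3 together in vehicle ESCs and 29.6% ± 0.46 in vehicle EpiLCs (SD, n = 3). The sum of both was 45.7 ± 1.93 CPM per kilobase in vehicle ESCs and 28.6 ± 2.41 in vehicle EpiLCs. Ccnd2 added little in EpiLCs, at 6.53% ± 0.48 of the 3 D-type cyclins. The tables of the cell types were adjusted separately, so levels across them are described and not tested. In bulk RNA, a lower level per cell and a smaller share of cells holding the transcript cannot be told apart, and cells in a given phase of the cycle are such a share.

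Ccne1 (chr7:38097984-38107534, minus strand), the main E-type cyclin, was 1.52-fold higher in vehicle EpiLCs, with 143, 134 and 155 CPM in ESCs and 205.6, 246 and 205.2 CPM in EpiLCs. Ccne2, the second E-type cyclin, was of similar level in both, at 17.1 ± 1.63 CPM in vehicle ESCs and 18.1 ± 2.62 in vehicle EpiLCs, with ranges that overlapped. Ccne1 thus made up 91.7% ± 0.74 of the E-type cyclin transcript per kilobase in vehicle ESCs and 94.1% ± 0.72 in vehicle EpiLCs. The ratio of E-type transcript to Ccnd1 and Ccnd3 together was 1.29 ± 0.036 in vehicle ESCs and 3.06 ± 0.079 in vehicle EpiLCs. The annotated exonic length enters this ratio and the Ccnd3 share above. That length is 8775 bases for Ccnd3 and 2662 for Ccne1, against 3858 and 2000 for the longest transcript. Neither measure was computed with the longest transcript, so which type was in excess in ESCs is not settled.

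The kinases differed in opposite directions. Cdk4, the D-cyclin kinase, measured 506 ± 16.2 CPM in vehicle ESCs and 591 ± 16.4 in vehicle EpiLCs, 1.17-fold more in EpiLCs, whereas Cdk2 (chr10:128697939-128705031, minus strand), the partner of cyclin E, measured 149.1 ± 0.73 and 99.5 ± 3.80 CPM, 1.5-fold more in ESCs. Cdk6 (chr5:3341485-3531008, plus strand) was 1.21-fold higher in vehicle ESCs, at 24.9 ± 1.77 against 20.6 ± 0.26 CPM. Cdkn1b, which encodes the inhibitor p27, was 1.51-fold higher in vehicle ESCs, at 46.0 ± 1.78 against 30.4 ± 1.62 CPM. Rb1 (chr14:73183673-73325822, minus strand), whose protein holds E2F factors in check, did not separate the cell types, at 13.9 ± 0.75 and 16.3 ± 3.61 CPM. In all, 3 of the 9 genes measured in both tables were higher in vehicle EpiLCs without overlap, 4 were lower and 2 overlapped, and 1 of the 9, Ccnd3, differed by 2-fold or more. Ranges were apart for 75.5% of the 12410 genes in both tables (37.1% higher in EpiLCs and 38.4% lower) and 21.7% were also at least 2-fold apart. Neither share was tested against that of the G1 genes.

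**Figure D2:**
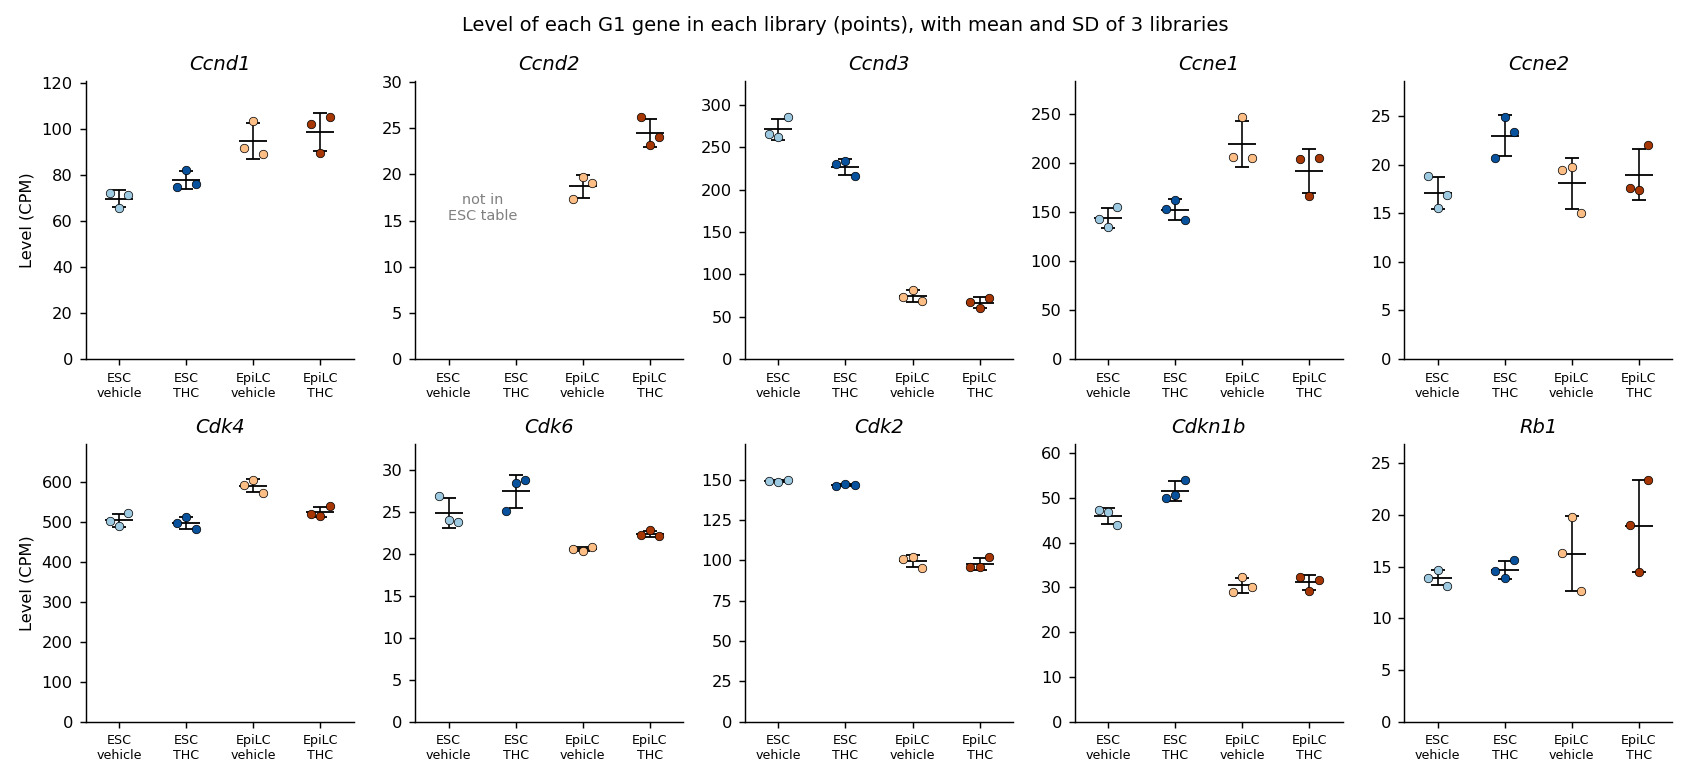
Level of each G1 gene in CPM (vertical axis from 0) in each of the 12 libraries, with 1 panel per gene, points for libraries, and bars for the mean and SD of each group of 3. Ccnd3 is at 216 CPM or more in every ESC library and at 81.5 CPM or less in every EpiLC library, and the exposed and vehicle groups of most genes lie close together.

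In ESCs, exposure to Δ9-THC went with a lower level of Ccnd3 and a higher level of Ccne2. These were 2 of the 9 measured G1 genes that passed the test (edgeR's quasi-likelihood test, Benjamini-Hochberg adjusted p at most 0.05), beside 906 of 13104 genes in all, or 6.91% (3.37% higher and 3.55% lower). Ccnd3 measured 266, 263 and 285 CPM with vehicle and 230.2, 234 and 216 CPM with Δ9-THC. Every exposed library lay below every vehicle library, the log2(fold-change) was −0.26 (SE 0.046), and the level fell by 16.5% (edgeR adjusted p = 0.0337). Ccne2 (chr4:11191351-11204779, plus strand), whose product activates CDK2 at the start of S phase, measured 18.8, 15.5 and 16.8 CPM with vehicle and 20.7, 24.9 and 23.4 CPM with Δ9-THC. Every exposed library lay above every vehicle library, and the level rose by 34.7%, a log2(fold-change) of 0.43 with an SE of 0.093 (edgeR adjusted p = 0.0473).

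Both calls lay close to the threshold and were lost in each of the 6 fits that left out 1 library, where the edgeR adjusted p ran from 0.0721 to 0.134 for Ccnd3 and from 0.0721 to 0.144 for Ccne2. Those fits called between 0 and 1 genes of the whole table, so this loss is not particular to Ccnd3 and Ccne2. Exposed and vehicle ESC libraries also differed by a smooth trend with the GC content and length of genes. Ccnd3 has a GC content of 56.7% and Ccne2 of 36.3%, and for genes of their GC content and length the trend stood at −0.12 and 0.23 (log2, exposed over vehicle). With that trend removed, the log2(fold-change) was −0.14 for Ccnd3 (edgeR adjusted p = 0.211) and 0.21 for Ccne2 (edgeR adjusted p = 0.287). A fit of all 12 libraries gave −0.28 and 0.41 (edgeR adjusted p = 0.127 and 0.154), and the fit with a replicate block gave −0.26 and 0.43 (edgeR adjusted p = 0.414 for both). Without 1 library the log2(fold-change) ran from −0.28 to −0.23 for Ccnd3 and from 0.37 to 0.51 for Ccne2, so the sizes changed less than the calls.

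The other G1 genes did not pass the test in ESCs. Ccnd1 measured 72.0, 65.4 and 71.3 CPM with vehicle and 74.6, 82.1 and 76.1 CPM with Δ9-THC, with no overlap, and its log2(fold-change) was 0.16 (SE 0.054, edgeR adjusted p = 0.116). Cdkn1b (chr6:134920401-134925513, plus strand) measured 47.3, 46.9 and 44.0 CPM with vehicle and 50.02, 50.6 and 54.0 CPM with Δ9-THC, again with no overlap, and its log2(fold-change) was 0.16 (SE 0.046, edgeR adjusted p = 0.0793), or 0.069 with GC and length offsets (edgeR adjusted p = 0.331). Cdk2 held within a narrow band, 148 to 149.8 CPM with vehicle and 146 to 147 CPM in exposed cells. Cdk2 varied less within each group than counting error alone would give. Its groups did not overlap either, but the log2(fold-change) was no more than −0.023 (SE 0.023, edgeR adjusted p = 0.538). Cdk4 (log2(fold-change) −0.023), Cdk6 (0.14), Ccne1 (0.080) and Rb1 (0.074) overlapped between the groups. Groups were thus apart for 5 of the 9 genes, 3 higher and 2 lower with Ccnd3 and Ccne2 included, against 32.6% of all genes of the ESC table (16.7% higher and 15.9% lower). The unadjusted p was under 0.05 for 4 of the 9, against 28.7% of all genes.

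**Figure D3:**
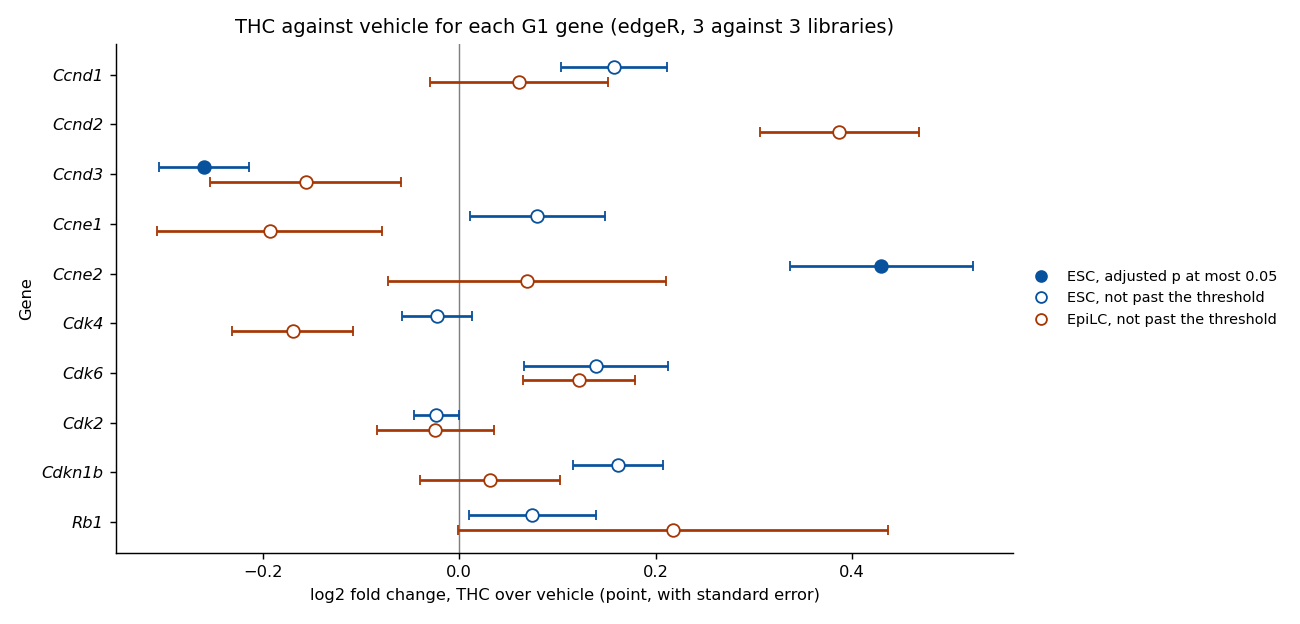
log2 fold change of Δ9-THC over vehicle for each G1 gene (horizontal axis, point with standard error) in ESCs (blue) and EpiLCs (brown), with filled points for an adjusted p at most 0.05. Ccnd3 at −0.26 and Ccne2 at 0.43 in ESCs are the filled points, and Ccnd2 at 0.39 has the largest open one.

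In EpiLCs none of the 10 G1 genes passed the test, and neither did any of the 13717 genes of the table (0.0%) by edgeR, although 2069 genes had an unadjusted p under 0.05 and DESeq2 called 87. Libraries of a group differed more in EpiLCs than in ESCs (chi-square per gene 38.5 to 92.1 against 4.60 to 7.49 between pairs). The part of this spread in the lack of calls was not tested. The largest difference among the G1 genes was in Ccnd2 (chr6:127125162-127152193, minus strand), the third D-type cyclin, with 17.3, 19.7 and 19.1 CPM with vehicle and 26.2, 23.2 and 24.0 CPM with Δ9-THC. Every exposed library lay above every vehicle library, for a log2(fold-change) of 0.39 (SE 0.081) and an unadjusted p of 0.00231 (edgeR adjusted p = 0.160 and DESeq2 adjusted p = 0.0873). Cdk4 (chr10:127063534-127067920, plus strand) measured 594, 606 and 574 CPM with vehicle and 520.2, 516 and 541 CPM with Δ9-THC, and its log2(fold-change) was −0.17 (SE 0.062, edgeR adjusted p = 0.283), with no overlap. These 2 genes were the only ones of the 10 with an unadjusted p under 0.05 in EpiLCs, beside 15.1% of all genes.

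Among the rest, Cdk6 measured 20.6, 20.3 and 20.8 CPM with vehicle and 22.3, 22.9 and 22.1 CPM with Δ9-THC, without overlap and with a log2(fold-change) of 0.12 (SE 0.057, edgeR adjusted p = 0.373). Ccne1 measured 205.6, 246 and 205.2 CPM with vehicle and 204, 166 and 204.9 CPM with Δ9-THC. Its groups came within 1 CPM of each other, 1 vehicle library stood high and 1 exposed library low, and the log2(fold-change) was −0.19 (SE 0.11, edgeR adjusted p = 0.476). The log2(fold-change) was −0.16 for Ccnd3, 0.061 for Ccnd1, 0.069 for Ccne2, −0.024 for Cdk2, 0.032 for Cdkn1b and 0.22 for Rb1, each with groups that overlapped. Leaving out 1 library moved several of these widely, from 0.034 to 0.39 for Rb1, from 0.012 to 0.13 for Ccnd1 and from −0.22 to −0.085 for Ccnd3. Rb1 had the widest spread relative to its level, from 12.6 to 19.8 CPM with vehicle and from 14.5 to 23.4 CPM with Δ9-THC. Groups were apart for 4 of the 10 genes, 2 higher and 2 lower, against 21.8% of all genes of the EpiLC table (11.2% higher and 10.6% lower).

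Whether the difference between exposed and vehicle libraries depended on the cell type was tested as the interaction in a model of all 12 libraries. Exposed EpiLCs came from ESCs already exposed, so cell type and length of exposure cannot be told apart in this test. None of the 9 genes in both tables passed, beside 4 of 12410 genes called, or 0.0322% (0.0242% higher and 0.00806% lower). Nor had any of the 9 an unadjusted p under 0.05, beside 13.7% of all genes. The largest differences (effect in EpiLCs minus effect in ESCs, log2) were −0.35 for Ccne2 (SE 0.18, edgeR adjusted p = 0.419) and −0.26 for Ccne1 (SE 0.14, edgeR adjusted p = 0.444), followed by 0.16 for Rb1 (SE 0.24, edgeR adjusted p = 0.831) and −0.13 for Cdk4 (SE 0.075, edgeR adjusted p = 0.472). The call of Ccnd3 in ESCs alone is therefore not shown to be a difference between the cell types, its interaction being 0.12 (SE 0.11, edgeR adjusted p = 0.691).

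Ratios between genes of the same library give a further view of the balance, described here without a test because they combine the values above. The share of Ccnd3 in Ccnd1 and Ccnd3 together was 67.7% ± 1.04 in vehicle and 61.0% ± 1.13 in exposed ESCs, and 29.6% ± 0.46 in vehicle and 26.6% ± 0.39 in exposed EpiLCs (SD, n = 3). In both cell types all 3 exposed libraries lay below all 3 vehicle libraries. The ratio of E-type transcript to Ccnd1 and Ccnd3 together was 1.29 ± 0.036 in vehicle and 1.504 ± 0.039 in exposed ESCs. It was 3.06 ± 0.079 in vehicle and 2.71 ± 0.090 in exposed EpiLCs. Exposed libraries thus lay higher in ESCs and lower in EpiLCs, a difference that was not tested. This ratio leaves out Ccnd2, which made up 6.53% ± 0.48 of the 3 D-type cyclins in vehicle and 8.37% ± 0.56 in exposed EpiLCs. Cdk4 over Cdk2 was 6.49 ± 0.18 in both ESC groups and went from 11.4 ± 0.15 in vehicle to 10.3 ± 0.12 in exposed EpiLCs.

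**Figure D4:**
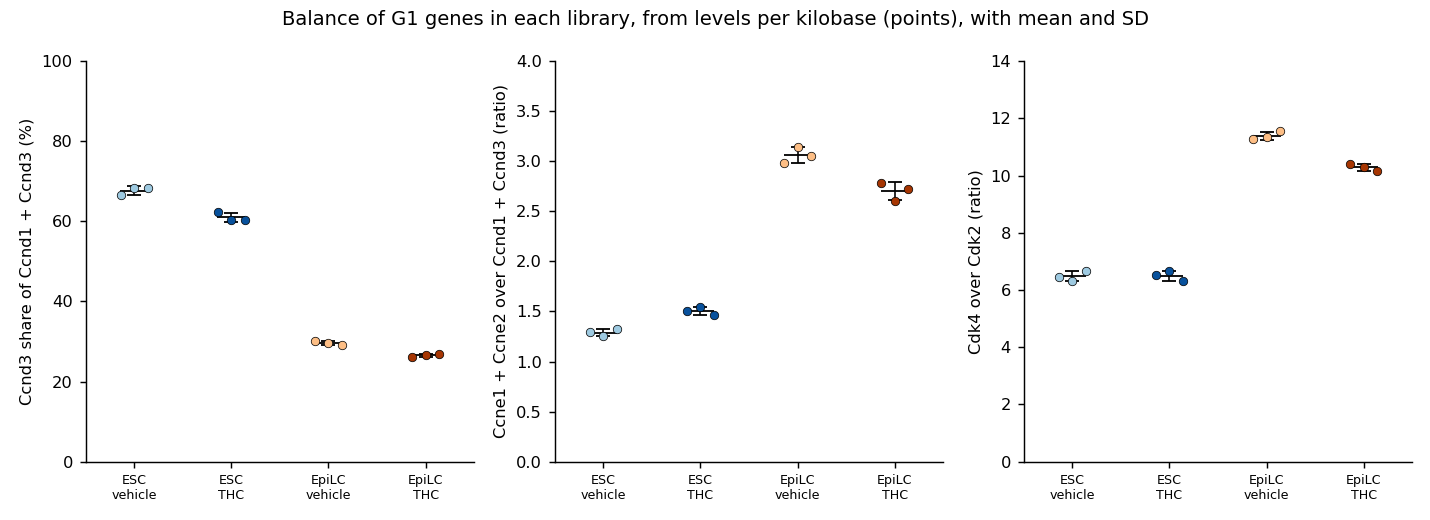
Share of Ccnd3 in Ccnd1 plus Ccnd3 (percent), ratio of E-type cyclin transcript to Ccnd1 plus Ccnd3, and ratio of Cdk4 to Cdk2. Each is from CPM per kilobase, in the 12 libraries (points) with mean and SD per group. The Ccnd3 share is near 68% and 61% in ESCs and near 30% and 27% in EpiLCs, while the Cdk4 to Cdk2 ratio is 6.49 in both ESC groups and 11.4 and 10.3 in the EpiLC groups.

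Around these genes, 31 others of the G1/S machinery were tested in both cell types. In ESCs 18 of the 31 were higher and 13 lower with Δ9-THC (median log2(fold-change) 0.035, against 0.0041 for all genes), and 2 were called, both higher, beside 6.91% of all genes called (3.37% higher). Ccnh, the cyclin of the CDK-activating kinase, went from 62.3 ± 0.33 to 71.5 ± 0.63 CPM (log2(fold-change) 0.20, SE 0.027, edgeR adjusted p = 0.0283). Cul1, the scaffold of the SCF ubiquitin ligase, which marks cyclin E and p27 for degradation, went from 159.8 ± 1.59 to 179 ± 2.13 CPM (log2(fold-change) 0.16, SE 0.024, edgeR adjusted p = 0.0301). All 6 CDK inhibitors of this list (Cdkn1a, Cdkn1c, Cdkn2a, Cdkn2b, Cdkn2c and Cdkn2d) had a log2(fold-change) below 0 in ESCs, from −0.28 to −0.081, and none was called. Of all 13104 genes, 6407 were below 0, and Cdkn1b, the inhibitor among the G1 genes, went the other way at 0.16. The trend with GC content and length stood at 0.18 for genes like Ccnh and below 0 for all 6 inhibitors. With that trend removed, the log2(fold-change) was 0.021 for Ccnh (edgeR adjusted p = 0.819) and 0.081 for Cul1 (edgeR adjusted p = 0.186). Both calls were also lost with the replicate block (edgeR adjusted p = 0.415 and 0.424). The same held in each fit that left out 1 library (edgeR adjusted p 0.0721 to 0.134), where between 0 and 1 genes of the whole table were called.

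In EpiLCs 14 of the 31 were higher and 17 lower (median −0.029, against 0.0030 for all genes), with no call. The largest log2(fold-changes) were 0.38 for Rbl2 (SE 0.083, edgeR adjusted p = 0.171), a pocket protein like RB1, and 0.35 for E2f5 (SE 0.10, edgeR adjusted p = 0.214), one of the repressive E2F factors. Of the 10 E2F and DP factors, 7 were higher in ESCs and 6 in EpiLCs, and none was called in either.

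A second list held 17 E2F targets, genes of DNA replication and of the later cycle that E2F factors are known to switch on once RB1 is phosphorylated. In ESCs 10 were higher and 7 lower with Δ9-THC (median log2(fold-change) 0.015) and none was called. The largest in size were Mybl2, a transcription factor of the later cell cycle, at −0.15 (SE 0.040, edgeR adjusted p = 0.0654) and Pcna, the sliding clamp of the replication fork, at 0.14 (SE 0.050, edgeR adjusted p = 0.123). In EpiLCs all 17 had a log2(fold-change) below 0, with a median of −0.13, while 6764 of the 13717 genes of the table did. None of the 17 was called, and none had an unadjusted p under 0.05, beside 15.1% of all genes of the EpiLC table. Cdc45 at −0.21 (SE 0.13, edgeR adjusted p = 0.506) and Mcm5 at −0.20 (SE 0.15, edgeR adjusted p = 0.564), both parts of the replicative helicase, were largest in size. The 17 values come from the same 6 libraries, so their signs are not separate observations.

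**Figure D5:**
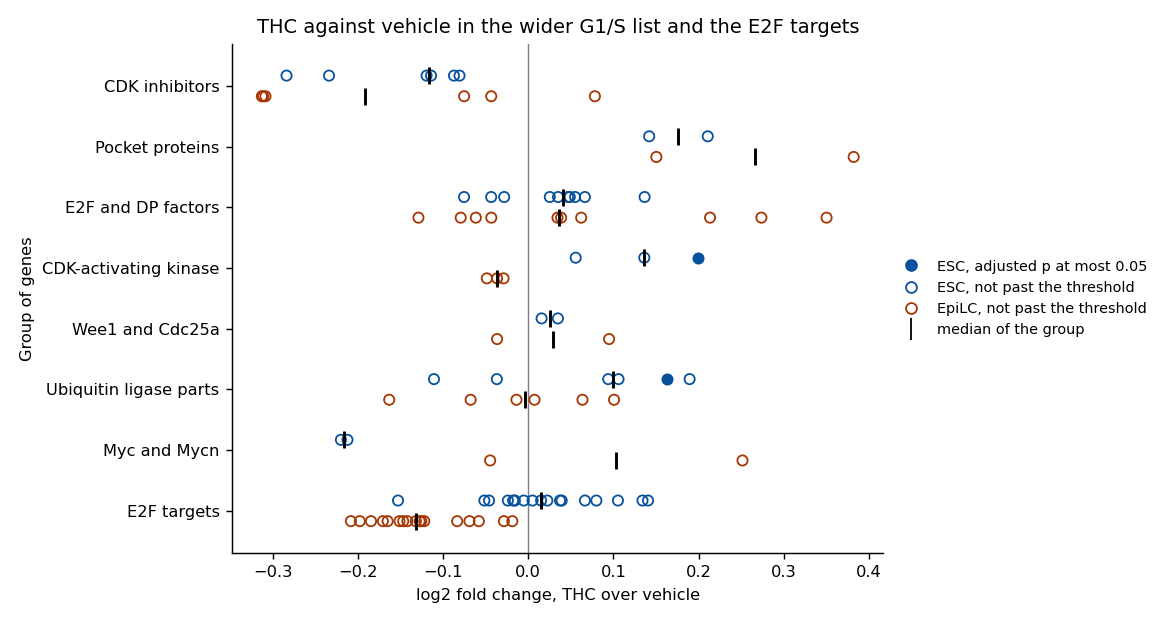
log2 fold change of Δ9-THC over vehicle (horizontal axis) for each gene of the wider G1/S list, by role, and for the E2F targets, in ESCs (blue) and EpiLCs (brown). Black bars are medians and filled points have an adjusted p at most 0.05; the 17 E2F targets straddle 0 in ESCs and lie left of 0 in EpiLCs, at a median of −0.13.

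Between the vehicle groups, 13 of the 31 genes were higher in EpiLCs without overlap, 14 lower, and 4 overlapped, and for the E2F targets these counts were 4, 5 and 8, against 75.5% of all genes with ranges apart (37.1% higher and 38.4% lower). The widest gaps belonged to Cdkn1c, the inhibitor p57 (0.93 CPM in ESCs and 13.2 in EpiLCs), Myc, an upstream activator of Ccnd2 and Cdk4 (6.65 and 62.1 CPM), and Cdkn1a, the inhibitor p21 (119.6 and 35.0 CPM), named here for the size of their gaps after the values were seen. Across all 12 libraries, the genes whose centred log2 levels were closest to those of Ccnd3 were Sik1, Sec14l1 and Cdkn1a, with root mean square differences of 0.091, 0.093 and 0.095. For Ccne1 they were Pum3, Pkm and Tmem39b, at 0.052, 0.054 and 0.054. The log2 ratio of vehicle EpiLCs to vehicle ESCs was −1.87 for Ccnd3 and −1.74, −1.79 and −1.77 for its 3 neighbours, and 0.61 for Ccne1 and 0.58, 0.55 and 0.54 for its own.

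Some counts leave out part of a gene. Reads were counted without strand, and bases shared with another gene were not assigned. The share of exonic bases lost in this way was 23.4% for Ccnd1, 19.7% for Cdk4, 17.4% for Ccne2 and 14.9% for Rb1, and at most 7.86% for the other 6 genes. Levels per kilobase of those 4 genes are thus low estimates, while comparisons of 1 gene between groups use the same bases.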

How the data were processed

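RNA-seq of 3 vehicle and 3 Δ9-THC libraries each of ESCs and EpiLCs was used. The authors aligned reads with STAR (unique reads), counted them per gene over exons with HTSeq (union mode, no strand), removed low-count genes and adjusted the counts with ComBat-seq. The deposited values are these adjusted counts, whole numbers not scaled for depth, in 1 table per cell type. The batches, and which of 2 library kits made which library, are not given in the sources used here, and the genome is named both mm10 and GRCm39. The authors' tables of fold changes and p-values were not used. 0 columns were left unassigned.

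All genes of each table (total over 10 counts) were tested with edgeR 4.0.16 (R 4.3.3, TMM, quasi-likelihood, Benjamini-Hochberg over all genes, threshold 0.05), on 6 libraries per cell type, and as an interaction over 12. The method was tested on simulated data, drawn as independent libraries without batch adjustment. That simulation does not cover the dependence between adjusted libraries described below, so it cannot show how the tests behave under it. The replicates are labelled biological. CPM values used TMM within each table, and lengths and GC content came from GENCODE M21 (GRCm38). Alternatives were RLE scaling, count filters, DESeq2 1.42.0, GC and length offsets (splines, 5 degrees of freedom), a replicate block, a fit of 12 libraries and leaving out each library. Over all genes, libraries of a group differed by more than counting error. The chi-square per gene was 4.60 to 7.49 between pairs of ESC libraries and 38.5 to 92.1 between pairs of EpiLC libraries. An excess over counting error did not hold for every gene. For Cdk2 in vehicle ESCs, with counts of 4066 or more, the SD of 0.73 at 149.1 CPM lay below counting error. Small SDs and SEs of single genes are thus not a measure of precision.

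The 10 genes and the gene lists were chosen with earlier results of these data known. All 10 were to be named, with the called genes of each wider list (or, with none called, the 2 of largest log2 fold change), and for the 2 genes of largest rise and fall between vehicle groups the 3 genes most alike (root mean square difference of centred log2(CPM + 0.5) over 12 libraries).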

Additional observations from a re-analysis of the deposited data

Results flagged for a closer look

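Skp1a, a part of the SCF ubiquitin ligase, was singled out because its exposed libraries all lay above the vehicle libraries in ESCs and all below them in EpiLCs. In ESCs it measured 482 ± 9.66 CPM with vehicle and 515 ± 8.89 CPM with Δ9-THC, and in EpiLCs 549.6 ± 8.81 and 524 ± 6.19 CPM (SD, n = 3). The effect in EpiLCs minus that in ESCs was −0.15 on the log2 scale (SE 0.068), with an unadjusted p of 0.0533 and an edgeR adjusted p of 0.370, so the difference did not pass the test. Skp1a was chosen after its values were seen, and neither cell type alone passed (edgeR adjusted p = 0.0881 in ESCs and 0.621 in EpiLCs).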

How the results depend on the processing

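The calls in ESCs depended on the fit. RLE scaling, the count filters and DESeq2 kept both G1 genes called. The filters could hardly change this. The lowest gene total in the ESC table was 82, and asking for 10 counts in every library kept 13094 of 13104 genes. The replicate block left 5 genes and 0 G1 genes called in ESCs, the GC and length offsets 2 and 0, both together 3 and 0, the fit of 12 libraries 31 and 0, and leaving out 1 library between 0 and 1 genes (2742 to 3746 at an unadjusted p under 0.05) and 0 G1 genes. In EpiLCs, where edgeR called 0 genes, DESeq2 called 87 and the fit of 12 libraries 411. For the interaction, edgeR called 4 genes, the block, the offsets, both together and every fit without 1 library called 0, and DESeq2 133. The causes were not tested.

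With the offsets, without and with the block, the log2(fold-change) turned to 0.027 and 0.027 for Cdk4 and to −0.040 and −0.040 for Rb1 in ESCs, and to −0.046 and −0.047 for Cdk6 and −0.032 and −0.032 for Cdkn1b in EpiLCs. The interaction turned to −0.038 and −0.038 for Ccnd3 and −0.049 and −0.049 for Cdk2. Leaving out 1 library gave −0.055 to 0.14 for Ccne2 and −0.012 to 0.076 for Cdkn1b in EpiLCs, and interactions of −0.020 to 0.033 for Cdk2, −0.064 to 0.032 for Cdk6 and −0.018 to 0.32 for Rb1. None of these was called in any fit. Of 436 log2(fold-changes) of the G1 genes under alternatives, 389 kept direction and call, 27 changed direction and 20 lost the call. For most of the 389, keeping the call meant staying uncalled. Only Ccnd3 and Ccne2 in ESCs had a call to lose, and each was called in 5 of 15 fits, the main fit included. The longest transcript as length moved 4 of 38 ranks.

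Vehicle and exposed libraries of the same replicate number deviated from their group means in mirror image (r from −0.987 to −0.977 across genes). Vehicle and exposed libraries of different numbers had r from 0.223 to 0.695. Deviations from a group mean cancel within the group, so these positive values follow from the mirror image and are not a separate observation. The number therefore ties the adjusted libraries, though not as pairs that deviate together, and the tests without the replicate block, which gave 906 calls in ESCs against 5 with it, ignore that dependence. Depth limited none of the G1 genes, whose lowest count was 285.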
